A study of Mus musculus with 12 samples.

Results

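The genes that make, load, recapture and break down GABA, the main inhibitory transmitter of the forebrain, were followed in mouse hippocampal cultures after knockdown of *Neuid*, a long noncoding RNA. The 8 genes were chosen by role, out of 55471 genes in the count table. Of these, Gad1, Gad2 and Slc32a1 cover synthesis and vesicle loading in inhibitory neurons, and Slc6a11, Slc6a13, Abat and Aldh5a1 cover uptake and breakdown. Maob, which acts in the formation of GABA from putrescine, was grouped with the uptake and breakdown genes.

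The cultures came from wild-type CD1 mouse embryos of mixed-sex litters at embryonic day 17 and were labelled as primary hippocampal neurons. In both groups, cells received an antisense gapmer, a short modified oligonucleotide that directs RNase H to its target RNA, packed in lipid nanoparticles at day in vitro (DIV) 7, and RNA was collected at DIV 10. The 6 control libraries received negative control gapmers and the 6 *Neuid* KD libraries received gapmers against *Neuid*. The methods describe 1 targeting gapmer, so effects of that sequence and of *Neuid* loss cannot be told apart. Nothing in the labels says whether replicates came from separate cultures, and the p-values measure only the spread between these libraries.

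GABA is made from glutamate by the decarboxylases GAD67 (Gad1) and GAD65 (Gad2), and the vesicular transporter VGAT (Slc32a1) loads it into synaptic vesicles. After release it is cleared by sodium-coupled transporters of the Slc6 family, of which GAT-3 (Slc6a11) is found mainly on astrocyte processes. GABA transaminase (Abat) and succinic semialdehyde dehydrogenase (Aldh5a1) then return its carbon to the citric acid cycle in mitochondria, a route called the GABA shunt. Astrocytes can also form GABA from putrescine through monoamine oxidase B (Maob).

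Total counts were between 18002585 and 30914714 per control library and between 11152556 and 30573480 per *Neuid* KD library. Levels are given as CPM, which are reads scaled to the library size with TMM factors. *Neuid* itself (Gm10419) ranged from 25.97 to 31.01 CPM without and from 6.32 to 9.55 CPM with the knockdown, so the targeted gene followed the labels (log2 fold change -1.81, adjusted p = 1.3e-10, edgeR). The libraries also differed in background reads, measured as the summed CPM of 1778 chemosensory receptor genes. This sum ranged from 26.0 to 653 CPM among control libraries and from 26.9 to 604 CPM among *Neuid* KD libraries, with 4 control and 3 *Neuid* KD libraries at or above 100 CPM. Neuron markers were high in every library, with Map2, a dendrite protein, at 2312 to 2777 CPM without and 2106 to 2790 CPM with the knockdown. RNA of Slc1a2, the main astrocyte glutamate transporter, was also present, at 1019 to 1302 CPM in control. Which cells made it was not tested. In such bulk libraries, fewer cells of a type and less RNA per cell cannot be told apart.

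Across the GABA genes, knockdown went with more RNA for uptake and transamination and with no called change in synthesis. Slc6a11 and Abat rose in *Neuid* KD, and for either gene the groups did not overlap. Gad1, Gad2, Slc32a1, Aldh5a1 and Maob did not pass the test, and Slc6a13 had too few reads to be tested. Hence 2 of the 7 tested genes were called higher, where 6.31% of all 19578 tested genes were (edgeR quasi-likelihood test, Benjamini-Hochberg adjusted p under 0.05). None of the 7 was called lower, against 2.42% of all tested genes. At an unadjusted p under 0.05 (edgeR), 1 of the 7 was lower and 4 were higher, where 6.96% of all tested genes were lower and 11.9% higher. DESeq2 called 1 of the 7 lower, Gad2, where it called 6.66% of the 15023 genes with an adjusted p lower. With a log2 fold change above 0.5 in addition, 1 of the 7 remained, Slc6a11, where 2.44% of all tested genes did. For 2 of the 7 genes the lowest *Neuid* KD library exceeded the highest control library, as it did for 4.13% of tested genes, and for 0 of the 7 the highest *Neuid* KD library lay under the lowest control library, where 1.57% of tested genes did. The median log2 fold change of the 7 was 0.17 beside -0.03 over all tested genes, a small list in which each gene weighs heavily. Over all genes the calls were 1235 higher and 473 lower, and with upper-quartile scaling they were 1049 and 1259.

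**Figure D1:**
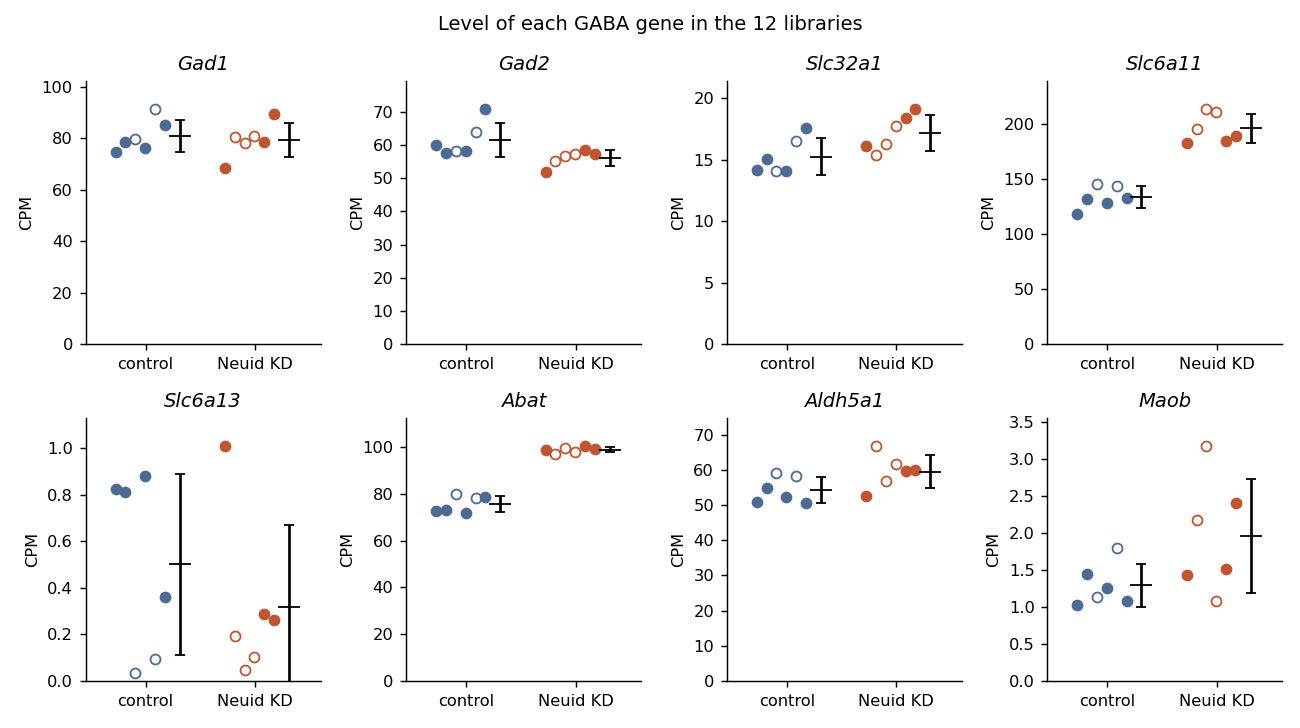
Level of each of the 8 GABA genes in CPM (y axes, each from 0) in the 6 control and 6 *Neuid* KD libraries, with the mean and SD beside the points, filled points being libraries with at least 100 CPM of chemosensory receptor reads and open points those under it. The groups lie apart for Slc6a11 and Abat and overlap for the other genes, and the SD bar of Slc6a13 in *Neuid* KD reaches below the axis.

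The decarboxylases, which set how much GABA a neuron can make, were well measured and close between the groups. Gad1 (ENSMUSG00000070880, GRCm38 chromosome 2, 70553072 to 70602014, plus strand) had 74.7, 79.2 and 91.2 CPM as the lowest, median and highest control library, and 68.5, 79.4 and 89.5 CPM in *Neuid* KD. The groups overlapped almost fully, and 3 of the 6 *Neuid* KD libraries were above the control median. Its log2 fold change was -0.03 (standard error 0.063, 95% interval -0.16 to 0.11, adjusted p = 0.89, edgeR). The interval leaves room for a change of either sign that is smaller than the one seen for Slc6a11 (0.56).

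Gad2 (ENSMUSG00000026787, chromosome 2, 22622205 to 22693874, plus strand), the form tied to synaptic vesicles, had 57.5, 59.1 and 70.8 CPM as the lowest, median and highest control library, and 51.8, 56.95 and 58.6 CPM in *Neuid* KD. All 6 *Neuid* KD libraries were below the control median and 5 were below the lowest control library. It differed by a log2 fold change of -0.13 (standard error 0.056, 95% interval -0.24 to -0.01), which did not pass the adjusted threshold (adjusted p = 0.22, edgeR). The call depended on the processing, with an adjusted p of 0.041 in DESeq2 and 0.014 in edgeR with upper-quartile scaling. The ratio of Gad1 to Gad2 per exon length was 0.92 to 1.10 in control and 1.02 to 1.20 in *Neuid* KD, so the ranges of this ratio overlapped.

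Slc32a1 (ENSMUSG00000037771, chromosome 2, 158610767 to 158615748, plus strand), which loads both GABA and glycine into vesicles, had 14.04, 14.6 and 17.6 CPM as the lowest, median and highest control library, and 15.4, 17.0 and 19.1 CPM in *Neuid* KD. All 6 *Neuid* KD libraries were above the control median and 3 were above the highest control library. Its log2 fold change of 0.17 (standard error 0.074, 95% interval 0.02 to 0.33) did not pass (adjusted p = 0.19, edgeR). It was 0.25 within the 7 libraries of high background and 0.09 within the other 5. An antisense gene, Gm14205, shares 23.65% of the 50-base windows of the Slc32a1 transcripts, and it held at most 0.42 CPM in any library. The strand setting of the counting was not stated, so reads of such antisense pairs may not have been separated.

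Thus the 3 genes of synthesis and loading pointed in different directions by small amounts, with log2 fold changes from -0.13 to 0.17 and none called. Their summed level was 148.5 to 173 CPM without the knockdown and 136 to 166 CPM with it. Other markers of inhibitory neurons were read beside them, and how specific each is to these cells was not tested. Of 20 interneuron markers 19 were tested, 2 were called higher and 0 lower, with a median log2 fold change of -0.04. The pair called higher, named here because the count was small, were the receptor kinase Erbb4 (0.80) and the transcription factor Sox6 (0.99), and Sox6 is also made by oligodendrocyte precursors. The most abundant interneuron markers, Calb2 and Cnr1, were at 107% and 100.3% of their control means and were not called. Of 12 general neuron markers, Nefm was called higher (0.21) and Elavl4 lower (-0.21), and the median was 0.02. Of 12 excitatory neuron markers, Camk2a was called higher (0.38) and Slc17a6 lower (-0.34), with a median of 0.02.

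The uptake and breakdown genes and Maob are taken next, starting with the transporter that showed the largest called change. To show the DNA next to these genes, the 250 bases before the RefSeq start are given for 3 of them on GRCm38.p6, namely the plasma membrane transporter that rose, the vesicular transporter that was not called and the dehydrogenase that follows Abat. In these 3 the window holds no annotated exon of the gene itself. A set of 6 short motifs was searched on both strands, and capitals mark every match.
Slc6a11, chr6:114130991-114131240, plus strand: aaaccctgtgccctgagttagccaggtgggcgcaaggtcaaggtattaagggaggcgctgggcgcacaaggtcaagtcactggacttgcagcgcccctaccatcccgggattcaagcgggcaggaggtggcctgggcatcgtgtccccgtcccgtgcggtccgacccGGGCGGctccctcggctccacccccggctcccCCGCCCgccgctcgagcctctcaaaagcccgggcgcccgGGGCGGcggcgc
Slc32a1, chr2:158610508-158610757, plus strand: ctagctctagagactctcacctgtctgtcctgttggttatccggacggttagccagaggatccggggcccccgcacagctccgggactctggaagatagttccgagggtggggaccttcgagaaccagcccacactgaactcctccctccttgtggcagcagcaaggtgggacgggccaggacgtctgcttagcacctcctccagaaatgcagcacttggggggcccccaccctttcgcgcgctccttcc
Aldh5a1, chr13:24937662-24937911, minus strand: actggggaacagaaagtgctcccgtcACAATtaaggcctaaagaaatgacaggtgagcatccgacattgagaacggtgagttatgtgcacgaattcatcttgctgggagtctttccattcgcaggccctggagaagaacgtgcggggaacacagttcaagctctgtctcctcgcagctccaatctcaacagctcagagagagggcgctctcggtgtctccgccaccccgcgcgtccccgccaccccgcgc

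The Slc6a11 window held 3 copies of the GC box GGGCGG, a sequence read by Sp1-type factors. At least 1 copy is found in 32.7% of the 32851 RefSeq promoter windows of this length, and the share with 3 copies was not computed. The Aldh5a1 window held 1 copy of ACAAT, the core read by SOX factors, which 27.7% of windows hold. The Slc32a1 window held no match to the 6 motifs searched. The others were TATAAA (in 12.4% of windows), TAATTA, the homeodomain core (4.84%), TTGGC, a core read by NFI factors (41.5%), and CAGCTG, an E-box (13.0%), and no match overlapped another. Guanine and cytosine made up 71.2% of the Slc6a11 window, 62.4% of the Slc32a1 window and 57.2% of the Aldh5a1 window, beside a median of 52.4% over all windows. The 90th percentile over all windows was 69.2%. The Gad1 window held 1 GC box and 1 TATAAA and the Gad2 window 1 TTGGC. RefSeq entries matched 6 of the 8 genes, and none was found for Abat and Maob.

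Slc6a11 (ENSMUSG00000030307, chromosome 6, 114131241 to 114249952, plus strand), the GABA transporter of astrocyte processes, rose in *Neuid* KD. Its lowest, median and highest control libraries were at 118, 132 and 145 CPM, and those of *Neuid* KD at 183, 192 and 213 CPM. No *Neuid* KD library came below 183 CPM, so the groups did not overlap. On average it was at 196 ± 13.2 CPM after knockdown beside 133 ± 9.90 CPM in control (SD, n = 6 each), 147% of the control level. The log2 fold change was 0.56 (standard error 0.059, 95% interval 0.43 to 0.68, adjusted p = 4.2e-06, edgeR).

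The level of Slc6a11 was lower where background reads were high, and the share of all tested genes that did so was not computed. With group means removed, its log2 CPM fell with log2 chemosensory CPM over the 12 libraries (Pearson r = -0.93, permutation p = 2e-05; Spearman rho = -0.93, permutation p = 7e-05; adjusted p over 8 genes 0.00012 and 0.00028). Leaving out the 2 libraries with the most extreme background gave r = -0.88. Lower levels at high background were not particular to Slc6a11. The summed general neuron markers were at 6858 to 8004 CPM in the 7 libraries of high background and at 8096 to 8246 CPM in the other 5. The summed endothelial markers went the other way, at 11.75 to 22.7 CPM beside 6.57 to 8.77 CPM. The difference of Slc6a11 between the groups was there on either side of this split. Its log2 fold change was 0.55 within the 7 libraries of high background (adjusted p = 7.9e-05, edgeR) and 0.49 within the other 5 (adjusted p = 1.4e-09, edgeR). With offsets for GC content and gene length it was 0.60 with a standard error of 0.179 and was no longer called (adjusted p = 0.13, edgeR).

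Abat (ENSMUSG00000057880, chromosome 16, 8513429 to 8621568, plus strand), the transaminase that starts GABA breakdown in neurons and glia, rose as well. Its lowest, median and highest control libraries were at 71.7, 75.7 and 79.8 CPM, and those of *Neuid* KD at 97.2, 99.15 and 100.5 CPM. The *Neuid* KD libraries lay close together and each was above the control range. The mean was 98.98 ± 1.20 CPM after knockdown beside 75.7 ± 3.52 CPM in control (SD, n = 6 each), 131% of the control level. The log2 fold change was 0.39 (standard error 0.043, 95% interval 0.30 to 0.48, adjusted p = 6.8e-06, edgeR), and it was 0.44 within the 7 libraries of high background (adjusted p = 0.0016, edgeR) and 0.29 within the other 5 (adjusted p = 9.6e-05, edgeR). With GC and length offsets it was 0.39 with a standard error of 0.142 and was not called (adjusted p = 0.28, edgeR).

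Aldh5a1 (ENSMUSG00000035936, chromosome 13, 24907579 to 24937661, minus strand), which oxidizes the product of Abat to succinate, was not called. Its lowest, median and highest control libraries were at 50.6, 53.6 and 59.2 CPM, and those of *Neuid* KD at 52.5, 59.7 and 66.8 CPM. The groups overlapped, although 4 *Neuid* KD libraries were above the highest control library. The log2 fold change was 0.13 (standard error 0.061, 95% interval 0.01 to 0.26, adjusted p = 0.24, edgeR), and its upper bound was under the lower bound of the Abat interval (0.30), although the difference between the genes was not tested. The antisense genes 9330162012Rik and 4932702P03Rik share 13.7% of the 50-base windows of the Aldh5a1 transcripts and held at most 1.68 and 1.18 CPM. The ratio of Abat to Aldh5a1 per exon length had a median of 0.99 in control and 1.22 in *Neuid* KD, with ranges of 0.97 to 1.13 and 1.06 to 1.37 that overlapped.

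Maob (ENSMUSG00000040147, chromosome X, 16709282 to 16817366, minus strand) was a low gene in these cultures, with 17 reads in the library with the fewest. Its lowest, median and highest control libraries were at 1.03, 1.19 and 1.80 CPM, and those of *Neuid* KD at 1.08, 1.845 and 3.18 CPM. The groups overlapped, with 3 *Neuid* KD libraries above the control range and 1 near its lower end. The log2 fold change of 0.60 was as large as that of Slc6a11 but had a standard error of 0.293 (95% interval -0.02 to 1.22, adjusted p = 0.28, edgeR), so the interval spanned 0. The coefficient of variation of the *Neuid* KD libraries was 39.3%, beside 22.5% in control.

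Slc6a13 (ENSMUSG00000030108, chromosome 6, 121300227 to 121337733, plus strand) encodes GAT-2, a transporter found in brain mainly at the meninges and vessels, and the meninges were removed when the cultures were made. It had 1 to 19 reads per control library and 1 to 12 per *Neuid* KD library and did not pass the filter on low counts. Its lowest, median and highest control libraries were at 0.033, 0.59 and 0.88 CPM, and those of *Neuid* KD at 0.047, 0.23 and 1.01 CPM. The level was 0.26 to 1.01 CPM in the 7 libraries of high background and 0.033 to 0.19 CPM in the other 5, without overlap. Its log2 CPM followed log2 chemosensory CPM (Pearson r = 0.96, permutation p = 3e-05; Spearman rho = 0.97, permutation p = 5e-05; adjusted p over 8 genes 0.00012 and 0.00028; r = 0.93 with the same 2 libraries left out). How much of its signal came from transcripts of the cultured cells was not tested. Fitted without the filter, its log2 fold change was -0.68 with a standard error of 0.817 (adjusted p = 0.95, edgeR).

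**Figure D2:**
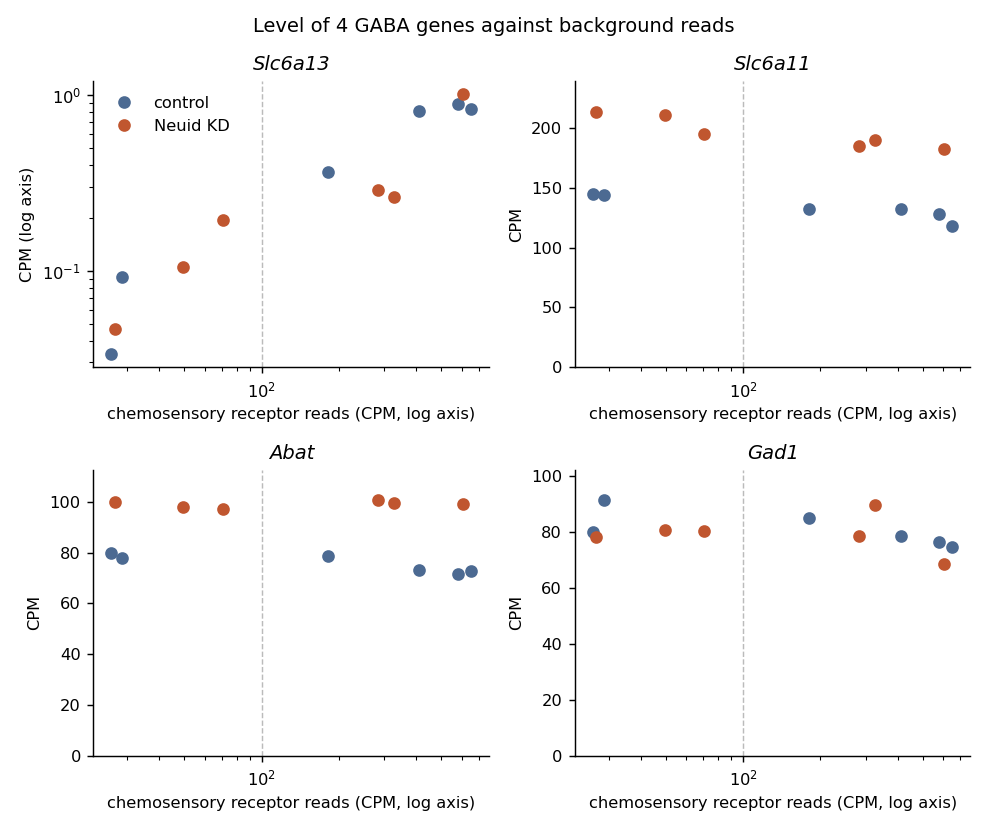
Level of Slc6a13 (CPM, log axis) and of Slc6a11, Abat and Gad1 (CPM, axes from 0) against the summed CPM of chemosensory receptor genes (log axis), 1 point per library, with a dashed line at 100 CPM. Slc6a13 rises with the background in both groups, while each control library lies under each *Neuid* KD library for Slc6a11 and Abat.

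Levels between genes were compared per kilobase of exon, on the scale of CPM divided by the length of the merged exons. In control, Slc6a11 was the highest of the 8 at 26.4 ± 1.96 (SD, n = 6), and its lowest library (23.4) was above every library of the other genes. Gad1 (10.6 ± 0.807), Gad2 (10.45 ± 0.872), Abat (9.77 ± 0.454) and Aldh5a1 (9.62 ± 0.666) followed with overlapping ranges, so neighbours among these 4 did not differ beyond their spread. Slc32a1 (5.44 ± 0.535), Maob (0.464 ± 0.104) and Slc6a13 (0.172 ± 0.134) came after them, and none of these 3 ranges overlapped the one above it. In *Neuid* KD, Slc6a11 stayed the highest at 38.8 ± 2.61, and Abat (12.8 ± 0.155) moved from the 4th to the 2nd place, with every library above every library of Gad1, Gad2 and Aldh5a1. The ratio of Slc6a11 to Gad1 had a median of 2.47 in control (2.36 to 2.75) and 3.81 in *Neuid* KD (3.20 to 4.14), and these ranges did not overlap. Merged exon length counts all annotated isoforms, so genes with long rarely used exons appear lower.

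**Figure D3:**
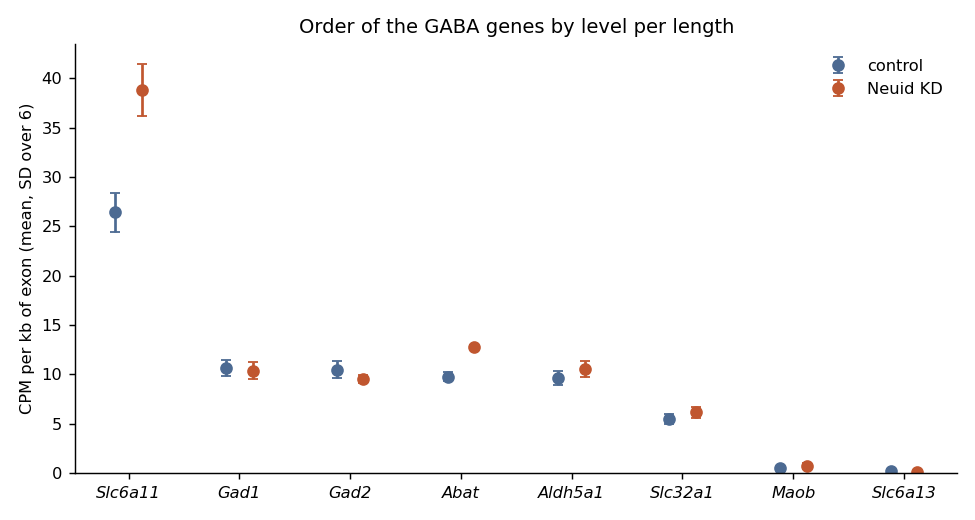
Mean level of the 8 GABA genes in CPM per kilobase of merged exon (y axis from 0) in control and *Neuid* KD, ordered by the control level, with bars for the SD over 6 libraries. Slc6a11 is the highest gene in both groups and the step from control to *Neuid* KD is plain for Slc6a11 and Abat.

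Variation from library to library within the groups was compared between the genes. Among 28 pairs of the 8 genes, tested on log2 CPM with group means removed, Pearson's r passed for 2 pairs and Spearman's rho for 1 (100000 permutations within groups, two-sided, adjusted over the 28). Gad2 and Slc32a1 had r = 0.80 (permutation p = 0.003, adjusted 0.041) and rho = 0.71 (permutation p = 0.019, adjusted 0.18). It was 0.72 once the 2 libraries with the most extreme Gad2 level were dropped, 0.90 within the 7 libraries of high background, and it was 0.82 with the background level removed (adjusted permutation p = 0.03). Gad1 and Slc32a1 had r = 0.70 (adjusted permutation p = 0.14; rho = 0.63, adjusted permutation p = 0.23; 0.69 without 2 libraries) and 0.78 with the background removed (adjusted permutation p = 0.038). Slc6a11 and Slc6a13 had r = -0.87 (permutation p = 0.00012, adjusted 0.0034) and rho = -0.92 (permutation p = 1e-04, adjusted 0.0028). Once the 2 libraries with the most extreme Slc6a11 level were dropped, r was -0.88. The permutation test on the remaining libraries, with their group means removed anew, gave an adjusted p of 0.10. With the background removed r was 0.13 (adjusted permutation p = 0.95), and within the 7 libraries of high background -0.43, so this relation did not hold apart from the background. Slc6a11 and Abat, which both rose, had r = 0.53 (adjusted permutation p = 0.36; rho = 0.51, adjusted permutation p = 0.29; 0.43 without 2 libraries) and -0.11 with the background removed.

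The genes most like Gad1 and Slc6a11 in pattern were searched for, and the leading ones were not GABA genes. Over 8926 tested genes whose mean reached 10 CPM, those with the highest Pearson r with Gad1 across the 12 libraries, group means removed, were Acin1 (0.96), Smad5 (0.96) and Kirrel2 (0.96), while Slc32a1 ranked 1334th and Gad2 2074th. For Slc6a11 they were Rufy3 (0.96), Eif2b5 (0.96) and Smim10l1 (0.96), while Abat (0.53) ranked 4183rd and Gad1 (0.45) 4907th. These values share library, depth and background, and they are given as a description.

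Further enzymes and carriers supply or use the same metabolites. Of 31 further genes around GABA, chosen by role, 27 were tested, 7 were called higher and 2 lower, beside the 6.31% and 2.42% of all tested genes. Their median log2 fold change was 0.10. Slc6a6, the taurine carrier, had a log2 fold change of -0.16 and was not called, and Slc6a12, the betaine and GABA carrier, had too few reads to be tested.

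Of 7 tested genes of glutamine and glutamate supply, 2 were called higher and 0 lower by edgeR. Glul, the astrocyte enzyme that makes glutamine, rose to 109.5 ± 9.38 CPM from 60.7 ± 4.52 CPM (SD, n = 6 each; log2 fold change 0.85, adjusted p = 6.8e-08, edgeR). Slc38a3, a glutamine exporter of astrocytes, rose from 10.1 ± 1.70 to 41.9 ± 1.68 CPM (log2 fold change 2.05, adjusted p = 3.5e-11, edgeR), at 416% of control. Neither gene overlapped between the groups. The neuronal glutamine carriers Slc38a1 and Slc38a2 and the neuronal glutamate carrier Slc1a1 had log2 fold changes of 0.15, -0.09 and -0.04, and none was called.

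Around the shunt, 2 of 9 genes were called, both higher. Glutamate dehydrogenase (Glud1) rose to 165 ± 6.83 CPM from 109 ± 6.72 CPM (SD, n = 6 each; log2 fold change 0.59, adjusted p = 2.7e-07, edgeR). Adhfe1, which oxidizes the GABA relative gamma-hydroxybutyrate, rose from 2.27 ± 0.402 to 5.15 ± 0.483 CPM (log2 fold change 1.18, adjusted p = 1.8e-05, edgeR). The 7 others, among them the succinyl-CoA ligase subunits, the aspartate transaminases and Ogdh, were not called, with differences of -0.05 to 0.53 on the log2 scale.

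Among the genes of the putrescine route and related oxidases, Aldh1a1 rose to 5.40 ± 0.916 CPM from 1.46 ± 0.394 CPM (SD, n = 6 each; log2 fold change 1.88, adjusted p = 2.6e-06, edgeR), a dehydrogenase that can make GABA outside the Gad route in some neurons. Aldh2 rose (0.25, adjusted p = 0.015, edgeR) and Aldh9a1, which turns an intermediate of putrescine into GABA, fell (-0.29, adjusted p = 0.011, edgeR). Of the enzymes for pyridoxal phosphate, the cofactor of both Gad enzymes and of Abat, Pdxk fell (-0.21, adjusted p = 0.026, edgeR) and Pdxp was at -0.13 without being called. The calls of Pdxk, Aldh2 and Aldh9a1 were lost when single libraries were left out, at adjusted p-values of up to 0.135, 0.0984 and 0.0504. For Aldh9a1 this happened only without *Neuid* KD library 2, for Pdxk without any of control libraries 2, 3, 5 and 6 and *Neuid* KD libraries 2, 3 and 4, and for Aldh2 without control library 2 or 6 or any *Neuid* KD library but the 2nd. Within the 5 libraries of low background, Aldh2 was at 0.08 (adjusted p = 0.739, edgeR) and Aldh9a1 at -0.23 (adjusted p = 0.0975, edgeR), neither called, beside 0.36 and -0.39 within the 7 of high background, where both were called. Pdxk was at -0.31 within the low-background libraries, where it was called, and at -0.17 within the high-background ones, where it was not (adjusted p = 0.621, edgeR). Aldh2 was not called with upper-quartile scaling either, at 0.19 (adjusted p = 0.0647, edgeR), and with no filter on low counts none of Aldh2, Aldh9a1 and Pdxk was.

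With GC and length offsets, Glul, Slc38a3, Adhfe1 and Aldh1a1 stayed called. Glud1 was then at 0.65 and Aldh2 at 0.28, no smaller than without offsets, but their standard errors went from 0.0506 to 0.199 and from 0.062 to 0.152, and neither was called. Aldh9a1, at -0.20 with a standard error of 0.217, and Pdxk, at -0.18 with a standard error of 0.165, were not called with these offsets either.

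**Figure D4:**
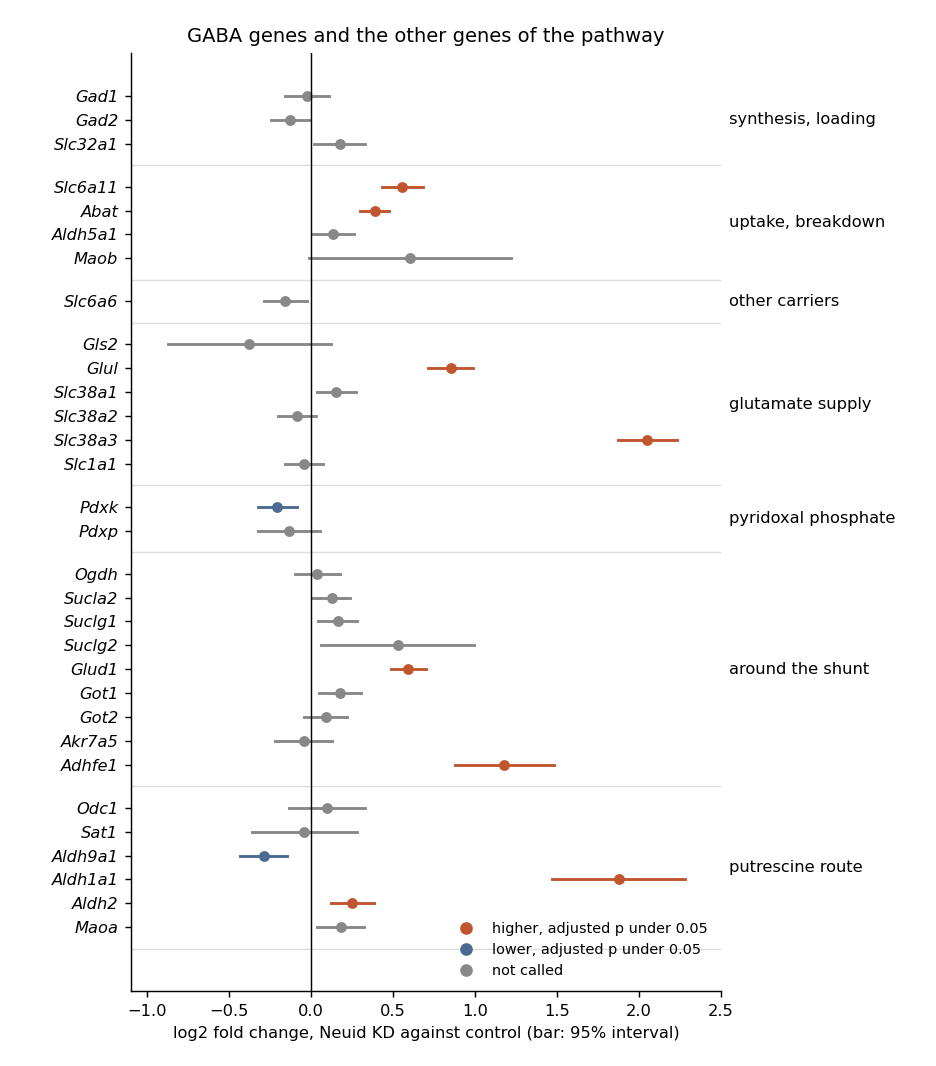
Log2 fold change of *Neuid* KD against control (x axis) with 95% intervals for the 7 tested GABA genes and 24 further genes of the pathway, grouped by role. Maob is placed with uptake and breakdown, although it acts in the formation of GABA from putrescine. Slc6a11, Abat, Glul, Slc38a3, Glud1, Adhfe1, Aldh1a1 and Aldh2 were called higher, Pdxk and Aldh9a1 lower, and the genes of synthesis and loading sit near 0.

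Astrocyte markers rose together with Slc6a11 and Abat. Of 15 markers 14 were tested and 13 were called higher, with a median log2 fold change of 1.28 and a range of 0.47 to 2.64. Their summed level was 1783 to 2237 CPM without and 3363 to 4050 CPM with the knockdown, and the groups did not overlap. Slc1a2 was at 155% and Slc1a3, another astrocyte glutamate transporter, at 238% of their control means, whereas Slc6a11 was at 147% and Abat at 131%. On the log2 scale, the fold change of Slc6a11 was thus below the median of the astrocyte markers and inside their range, and that of Abat was below the range. The authors propose that neurons make glial transcripts once *Neuid* is lost. Which cells, glial or neuronal, made the added Slc6a11 and Abat RNA was not tested.

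Markers of other cells were read in the same way. Of 9 markers of oligodendrocyte precursors Olig1, Olig2 and Lhfpl3 were called higher, 3 in all, and the median log2 fold change was 0.16. The 6 others, among them Pdgfra (0.44), Cspg4 (0.16), Sox10 (0.09) and Gpr17 (-0.77), were not called. The summed level of the 9 was 102.5 to 121.5 CPM without and 254 to 300 CPM with the knockdown. Olig1 made up most of this sum. No marker of microglia, of fibroblasts and mural cells, of endothelial cells or of ependymal cells was called (0 of 3, 9, 5 and 5 tested), and of the 5 tested oligodendrocyte markers 1 was called lower, Mbp (-0.66). The summed fibroblast and mural markers, cells that carry Slc6a13, were at 33.6 to 68.3 CPM without and 35.6 to 57.5 CPM with the knockdown. The 9 tested markers of this list had a median log2 fold change of -0.68. The sum was 39.4 to 68.3 CPM in the 7 libraries of high background and 33.6 to 41.1 CPM in the other 5.

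**Figure D5:**
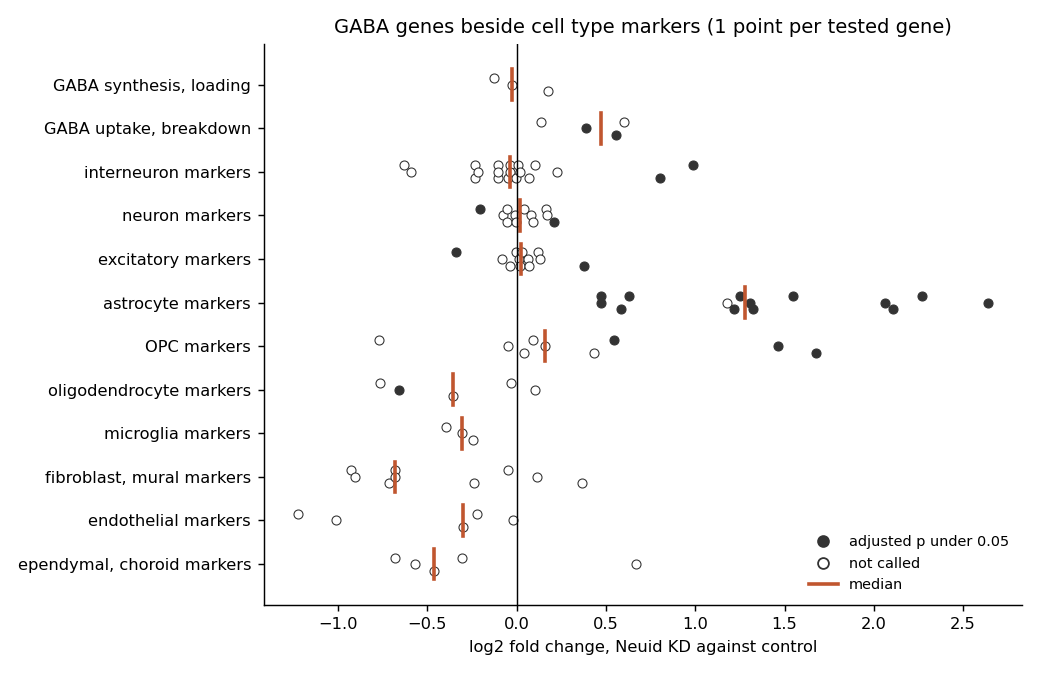
Log2 fold change of *Neuid* KD against control (x axis) for each tested gene of the GABA groups and of 10 lists of cell type markers, with filled points for an adjusted p under 0.05 and a bar at the median. The synthesis and loading genes of inhibitory neurons lie with the neuron and interneuron markers around 0. The uptake and breakdown genes, counted together with Maob, have a median of 0.47, beside 1.28 for the astrocyte markers.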

How the data were processed

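RNA-seq libraries, 6 control and 6 *Neuid* KD, were analysed. The authors trimmed and converted reads with bcl2fastq, aligned them to mm10 (GRCm38) with STAR, counted reads per gene with featureCounts and deposited the raw counts without normalization, per the labels and the study's methods. The kit was stranded, and the strand setting of the counting was not given in the sources used here.

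Counts passed filterByExpr and TMM scaling and entered a quasi-likelihood fit in edgeR 4.0.16 (R 4.3.3), with group as the only term and Benjamini-Hochberg adjustment over 19578 genes. The authors used DESeq2 with RUVseq, and DESeq2 1.42.0 and 2 RUVs factors were run as alternatives. CPM used TMM-scaled totals, and log2 CPM a prior count of 2. Total counts of 11152556 to 30914714 per library set the precision, and reads are not independent molecules. No 2 libraries of the same group agreed within sampling noise. Gene positions, exon lengths and shared 50-base windows came from GENCODE on GRCm38. The pipeline was tested on simulated data.

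The 8 genes, the pathway genes and the marker lists were chosen with earlier results of these data known. Named by rule were the 8 genes, *Neuid*, pathway genes with an adjusted p under 0.05 (at most 15), the 2 most abundant markers of a list, and the 3 genes most like Gad1 and Slc6a11. Pathway genes that were not called, and markers outside the top 2, were named for their role or small count after their values were seen. The background cutoff of 100 CPM was also set with the data known. Some pathway genes are counted but not reported here. Alternatives changed the scaling, test, filter, depth, background, GC and length offsets, the replicate block and the libraries included.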

Additional observations from a re-analysis of the deposited data

Results flagged for a closer look

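Among 18 groups of 6 libraries (the 8 genes and *Neuid*, in control and in *Neuid* KD), 1 library stood apart from the others of its group by Dixon's ratio, which exceeds its limit by chance in about 1 of 20 groups. Slc6a13 was at 1.01 CPM in *Neuid* KD library 1, the next highest library of the group being at 0.287 CPM and the lowest at 0.0468 CPM (ratio 0.751). This library had the most chemosensory receptor reads of its group, 604 CPM, and the lowest total count, 11152556.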

How the results depend on the processing

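The rise of Slc6a11 kept its direction and call in 26 of 27 alternatives and that of Abat in 25 of 27, with log2 fold changes of 0.49 to 0.61 and 0.29 to 0.44. GC and length offsets ended both calls (0 of the GABA genes higher), and offsets with the replicate block kept only Slc6a11 (1 higher). A fold threshold of 0.5 also left 1. Gad2 was called lower, making 1 lower, with upper-quartile scaling, DESeq2, DESeq2 with RUVs factors, libraries thinned to the smallest total, and GC offsets fitted on genes of at least 10 CPM, an alternative chosen after seeing the data. The fold change of Gad1 changed sign at values near 0, to 0.0158 within the 7 libraries of high background and to 0.0106 without control library 5, in a range of -0.0968 to 0.0106 over left-out libraries. Slc32a1, Aldh5a1 and Maob were not called in any of 27 alternatives.

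Pathway genes called higher numbered 11 with RUVs factors in edgeR, 12 with the background as a covariate, and 4 with GC offsets, alone or with the block. Pathway genes called lower numbered 4 with upper-quartile scaling or DESeq2, 5 with offsets from genes of at least 10 CPM, 1 within libraries of high background, and 0 with no filter, with the fold threshold, or with GC offsets, alone or with the block. Leaving out single libraries gave 0 to 2 of them. Over all genes, calls higher and lower were 711 and 229 with no filter, where the median log2 fold change shifted by -0.118, 396 and 103 with GC offsets, and 1116 and 1401 with offsets from genes of at least 10 CPM. No pair of genes passed the correlation test (0 of 28) without the 2 farthest libraries. The causes were not tested.

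Replicate numbers are shared by the groups, but same-numbered libraries deviated together for some numbers only (r from -0.637 to 0.774), and 2 of 6 matched best with their own number. With the replicate block 2 GABA genes were called higher and 0 lower, and 1299 and 542 genes over all. Among the 8 GABA genes the fewest reads were those of Slc6a13, at 1 to 19 per library, and of Maob, at 17 to 68.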
